A study of Homo sapiens with 4 samples.

Results

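The small nucleolar RNAs (snoRNAs) detected in these libraries are the rows of the gene count table whose symbol begins with SNORA, SNORD or SCARNA and a number, and whose counts over the 4 libraries add up to at least 40. Of 57992 rows in the table, 847 have such a symbol, 227 of those have a count in any library, and 40 reached the sum. These 40 members comprise 21 box C/D snoRNAs, 16 box H/ACA snoRNAs and 3 small Cajal body RNAs (scaRNAs). The summed count that chose them pools all libraries and carries no direction between groups. The RNA came from a VEN-R derivative, resistant to the BCL2 inhibitor venetoclax, of the human leukaemia line MOLM13 (acute myeloid). A hairpin RNA against PRMT9, a protein arginine methyltransferase, was induced in 2 libraries (labelled PRMT9 knockdown) and a control hairpin in the other 2 (labelled WT). Doxycycline was given in both groups, so it does not distinguish them, and untreated cells are not analysed here. The labels do not say whether libraries numbered 1 and 2 are separate cultures, technical repeats or different hairpins, so SDs and p-values measure only the spread between these libraries.

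SnoRNAs guide chemical modification of ribosomal RNA by base pairing. Box C/D snoRNAs bind fibrillarin and direct 2′-O-methylation of ribose, box H/ACA snoRNAs bind dyskerin and direct the conversion of uridine to pseudouridine, and scaRNAs use the same proteins in Cajal bodies to modify the RNAs of the spliceosome. A few snoRNAs, such as U3, act instead in cleavage of the ribosomal RNA precursor. Most human snoRNAs have no promoter of their own: they lie in introns of a host gene, are transcribed with it and are trimmed out of the excised intron, so that a host and its snoRNA share transcription but not splicing, trimming or decay. Many hosts encode ribosomal proteins, and others, such as the SNHG genes, encode no known protein. Mature snoRNAs carry no poly(A) tail, and the libraries were made from poly(A) RNA, so the counts are a small sample of snoRNA sequence, and reads of an intron that still belongs to the host transcript cannot be told apart from reads of the excised snoRNA.

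The sequences of 12 members on which the results turn were read from the GENCODE release 29 transcripts on GRCh38 and are printed 5′ to 3′ as DNA letters. Capitals mark the core of box C (TGATGA, searched in the first 30 bases) and of box D (CTGA, in the last 20 bases), or the ACA of an H/ACA tail (in the last 8 bases). The RPS12 gene on chromosome 6 holds 3 members on its plus strand, SNORD101 at chr6:132815307-132815379, SNORD100 at chr6:132816802-132816877 and SNORA33 at chr6:132817219-132817348, shown because all 3 were lower after PRMT9 knockdown while RPS12 was higher.
SNORD101: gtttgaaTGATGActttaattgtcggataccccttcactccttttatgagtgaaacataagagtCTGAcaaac
SNORD100: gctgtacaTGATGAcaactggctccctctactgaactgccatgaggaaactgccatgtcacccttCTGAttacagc
SNORA33: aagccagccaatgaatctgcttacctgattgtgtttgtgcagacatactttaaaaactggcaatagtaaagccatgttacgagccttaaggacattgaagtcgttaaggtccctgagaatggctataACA
SNORD14A (chr11:17074654-17074744, minus strand, in RPS13) and SNORD14E (chr11:123058077-123058161, minus strand, in HSPA8) are relatives in hosts that moved in opposite directions, and 72 of 93 columns of their alignment are identical (77.4%).
SNORD14A: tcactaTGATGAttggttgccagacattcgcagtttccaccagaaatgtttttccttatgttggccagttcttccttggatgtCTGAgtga
SNORD14E: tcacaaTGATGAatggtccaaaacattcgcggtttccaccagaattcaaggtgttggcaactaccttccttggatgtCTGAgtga
SNORD19C (chr3:52691378-52691453) and SNORD19 (chr3:52689248-52689315) lie in introns of the same gene, GNL3, on its plus strand, and are shown because their counts did not move alike. Of their 81 aligned columns, 52 are identical (64.2%), and neither held the TGATGA core.
SNORD19C: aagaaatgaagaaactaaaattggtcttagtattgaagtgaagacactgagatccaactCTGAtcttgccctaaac
SNORD19: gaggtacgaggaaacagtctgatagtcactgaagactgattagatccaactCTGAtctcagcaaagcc
SNORA71C (chr20:38429670-38429803) and SNORA71A (chr20:38427309-38427442) lie in SNHG17 on the minus strand and are 83.5% identical (116 of 139 columns). SNORA71C is one of the members that were higher relative to their host.
SNORA71C: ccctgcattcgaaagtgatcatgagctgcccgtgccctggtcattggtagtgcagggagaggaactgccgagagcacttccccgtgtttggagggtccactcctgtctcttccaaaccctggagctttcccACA
SNORA71A: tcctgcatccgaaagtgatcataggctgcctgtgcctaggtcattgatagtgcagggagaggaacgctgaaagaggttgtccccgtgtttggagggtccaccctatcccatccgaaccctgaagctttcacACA
SNORD12B (chr20:49280319-49280409, plus strand, in ZFAS1), SNORA26 (chr4:52713249-52713370, plus strand, in DANCR) and SNORA73B (chr1:28508559-28508762, plus strand, in SNHG3 within RCC1) are called members in hosts that are non-coding or hold a non-coding gene.
SNORD12B: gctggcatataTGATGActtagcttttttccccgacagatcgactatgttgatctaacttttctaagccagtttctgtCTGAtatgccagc
SNORA26: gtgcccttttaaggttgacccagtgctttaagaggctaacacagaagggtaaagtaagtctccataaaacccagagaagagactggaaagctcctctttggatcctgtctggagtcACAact
SNORA73B: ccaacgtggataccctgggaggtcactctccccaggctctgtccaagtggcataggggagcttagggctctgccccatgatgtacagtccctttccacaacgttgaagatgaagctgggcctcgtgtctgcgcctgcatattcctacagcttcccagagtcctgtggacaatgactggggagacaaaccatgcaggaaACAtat

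Total counts were 30764403 and 33845172 in the PRMT9 hairpin libraries and 30329901 and 28592902 in the control hairpin libraries. The members took 4779 counts in all, 0.00387% of the total, with 41 to 385 counts per member over the 4 libraries (median 80.5) and under 100 counts for 23 members. Counting error is therefore a large part of each value. PRMT9 itself had 81 and 78 counts after knockdown, against 398 and 406 counts in controls, a log2 fold change of -2.48 (SE 0.12). Of 12 myeloid marker genes 11 were tested, 10 of them called higher and 1, MPO, lower. Of all genes tested, 67.9% were called and 33.4% were called higher. The summed level of the myeloid markers was 2710 and 2706 CPM (counts per 1000000, TMM-scaled) after knockdown, against 1908 and 1899 CPM in controls. The largest part was LYZ, at 939 and 946 CPM after knockdown, against 609 and 605 CPM in controls. All 6 erythroid markers, CD2 and EPCAM were at 0 in each library, and 7 of 8 lymphoid markers were under 1 CPM. The other lymphoid marker, NKG7, a granule protein of cytotoxic lymphocytes, had 26.3 and 27.3 CPM after knockdown, against 15.2 and 14.1 CPM in controls, and was called higher (0.87, edgeR adjusted p = 8.08e-10). The sum over 7 epithelial and stromal markers was 37.9 and 37.4 CPM after knockdown, against 27.8 and 28.1 CPM in controls. The part of these marker shifts in the snoRNA results was not tested. In bulk RNA, fewer cells of a type and less RNA per cell cannot be told apart.

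SnoRNA reads were fewer after PRMT9 knockdown in both large classes. Box C/D members together had 13.8 and 14.3 CPM after knockdown, against 22.5 and 21.9 CPM in controls. Box H/ACA members had 14.9 and 14.0 CPM after knockdown, against 19.7 and 20.3 CPM in controls. Both knockdown libraries lay below both controls in each class. The 3 Cajal body members summed to more, 4.11 and 4.60 CPM after knockdown, against 2.98 and 3.07 CPM in controls, and most of these reads belong to 1 row, SCARNA15, described with the scaRNAs. Without that row, left out after the data had been seen, the sums overlapped, at 0.647 and 1.00 CPM after knockdown, against 0.661 and 0.776 CPM in controls. With 2 libraries against 2, the smallest two-sided p of an exact permutation test is 0.333, so these sums carry no test. The 807 rows below the sum of 40 were not part of the choice of members, and 187 of them had a count. Their sums were 4.53 and 4.51 CPM after knockdown, against 7.51 and 5.72 CPM in controls, for box C/D, and 6.40 and 6.75 CPM, against 8.56 and 8.26 CPM, for box H/ACA. In these rows too the knockdown libraries were the lower pair, whereas Cajal body rows overlapped, at 1.29 and 0.678 CPM after knockdown, against 1.29 and 1.09 CPM in controls.

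**Figure D1:**
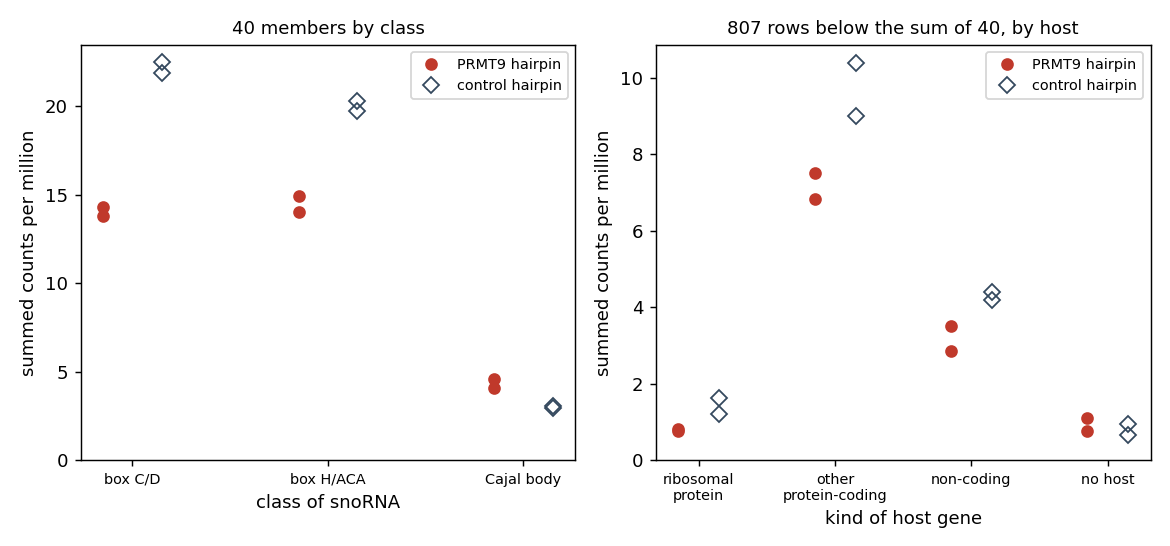
Summed CPM in each library, for the 40 members by class (left) and for the 807 rows below the sum of 40 by the kind of host gene (right). Each point is 1 library, with PRMT9 hairpin circles left of control hairpin diamonds. Box C/D and H/ACA points lie lower after knockdown, Cajal body points, mostly the row SCARNA15, higher, and among rows below the sum the points overlap only where there is no host gene.

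One member at a time, 11 snoRNAs fell and 1 row rose. The 39 members that passed the filter on low counts were tested within edgeR's quasi-likelihood fit of all 15193 genes, where a call is a Benjamini-Hochberg adjusted p below 0.05. SNORD63 did not pass, with 8 and 9 counts after knockdown and 18 and 6 counts in controls. The 11 members that fell are 28.2% of those tested, against a background in which 34.5% of all genes were called lower, and the 1 that rose is 2.56%, against 33.4% of all genes called higher. Among the 3911 tested genes whose counts sum to the range of the members, 9.1% were called lower and 29.4% higher, with a median log2 fold change of 0.28. The members' median was -0.50 (quartiles -0.85 and -0.06), and 29 of 39 values were below 0 (74.4%), against 49.9% of all genes and 36.6% of genes with like counts. In CPM both knockdown libraries were below both controls in 24 members and above them in 7, and the groups overlapped in 8. Among all genes the first of these patterns held for 41.7% and the second for 41.7%, and among genes with like counts for 20.8% and 46.0%.

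The box C/D class held 8 of the 11 falls. Of its 20 tested members 8 fell, none rose and 16 were below 0, with a median of -0.76. Without PRMT9 library 1, 5 C/D members fell, and with DESeq2 4. Of 16 H/ACA members 3 fell, none rose and 12 were below 0, with a median of -0.44, and 4 H/ACA members had an unadjusted p below 0.05, as had 8 C/D members. Of the 3 Cajal body members 1 rose, the row SCARNA15, whose value is also the class median, 0.61. That row is not the scaRNA alone, as described with the scaRNAs. Without control library 2 the C/D median was -0.56 and the H/ACA median -0.58, which turns the order of the classes round. Whether the classes differ from each other was not tested. Of the 39 tested members, 27 reached the filter's level of 0.327 CPM in both libraries of each group. Another 8 reached it in both controls only, among them 3 of the members that fell (SNORD19C, SNORD14E and SNORD63B), and 4 in both knockdown libraries only. With DESeq2 7 members fell and none rose, where 4360 of all 15193 genes fell and 3990 rose. In limma on the authors' log2(RPKM + 1) values 19 members fell and 4 rose, where 4902 of all 15193 genes fell and 4639 rose.

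**Figure D2:**
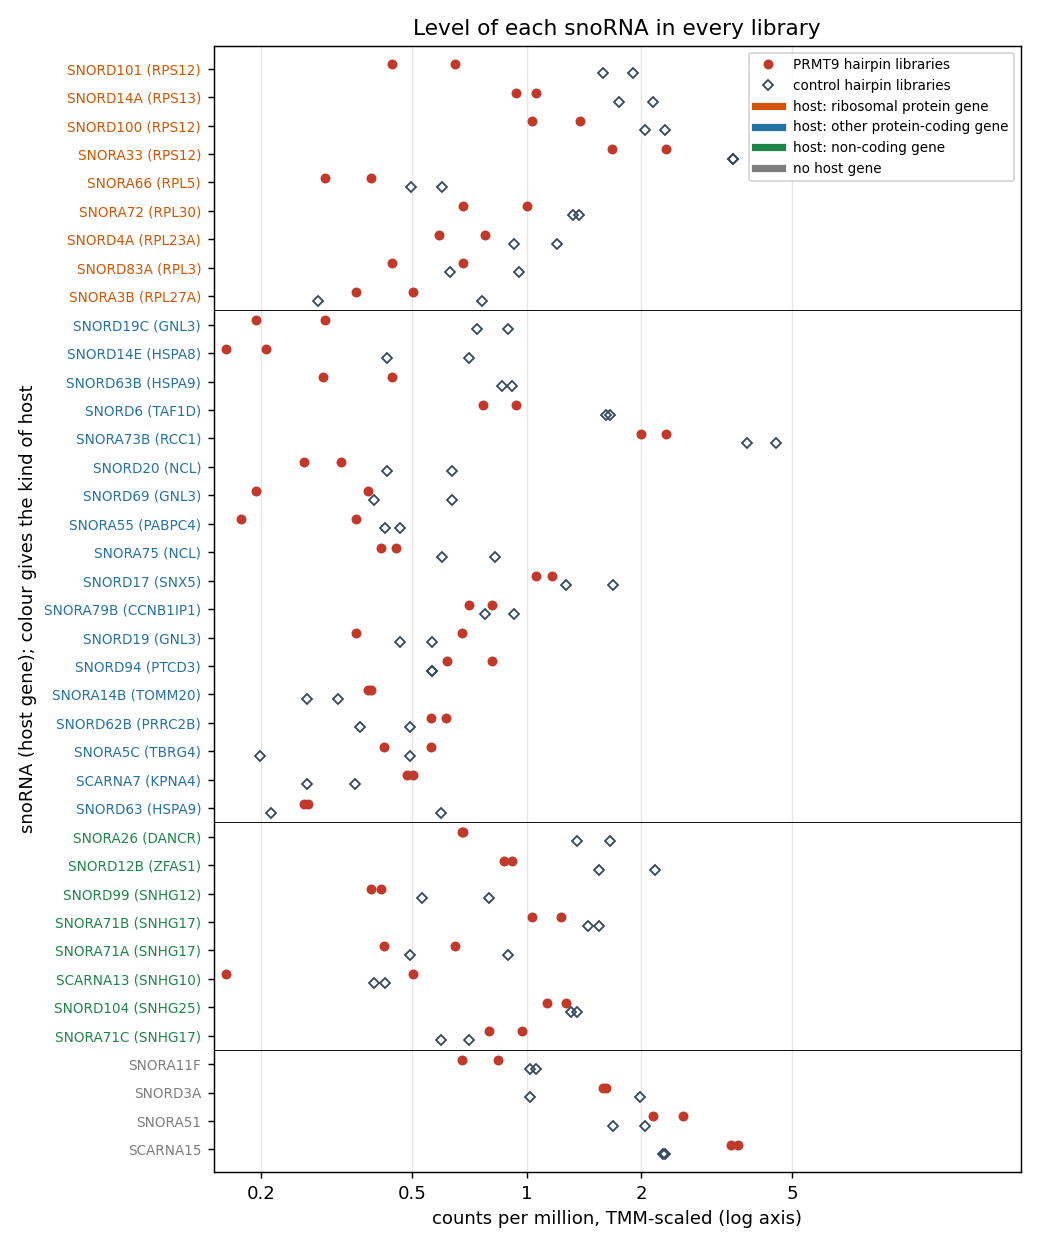
Level of 39 of the 40 members in every library, in TMM-scaled CPM on a log axis, with PRMT9 hairpin libraries as circles above control hairpin libraries as open diamonds. Rows are grouped by the kind of host gene, given in brackets, and ordered by fold change. Circles lie left of both diamonds for 23 of the members drawn and right of both for 7 of those tested.

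Members hosted by ribosomal protein genes ran against their hosts. All 10 had a log2 fold change below 0, from -1.68 to -0.29 with a median of -0.68, and 4 of them fell, while all 8 hosts rose by 0.18 to 0.35. Together these members had 257 and 270 counts after knockdown, against 421 and 421 counts in controls. Per 100000 counts of their 8 hosts that is 53.9 and 51.9 counts after knockdown, against 111.5 and 116.2 counts in controls. Both knockdown libraries stood well below both controls, and the libraries of a group lay close together. The same direction was present in the rows below the sum that lie in ribosomal protein genes, of which 8 had a count. They summed to 0.776 and 0.825 CPM after knockdown, against 1.62 and 1.20 CPM in controls.

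RPS12, a protein of the small ribosomal subunit, hosts 3 of these members, and all 3 fell. SNORD101 had 20 and 15 counts after knockdown, against 48 and 54 counts in controls. Each control library exceeded the sum of both knockdown libraries, and SNORD101 fell by 1.68 on the log2 scale (SE 0.31, edgeR adjusted p = 7.71e-05). SNORD100, which guides methylation of the small-subunit ribosomal RNA, had 32 and 47 counts after knockdown, against 70 and 58 counts in controls. The groups did not overlap, and the change was -0.84 (SE 0.24, edgeR adjusted p = 0.00476), a call lost with DESeq2 (adjusted p = 0.0555) and without PRMT9 library 1 (0.072). SNORA33, a guide of pseudouridylation, had 72 and 57 counts after knockdown, against 106 and 99 counts in controls. It changed by -0.81 (SE 0.20, edgeR adjusted p = 0.00118), again without overlap. RPS12 had 60964 and 64759 counts after knockdown, against 45601 and 43471 counts in controls, a rise of 0.35 on the log2 scale. The 3 snoRNAs together gave 203.4 and 183.8 counts per 100000 RPS12 counts after knockdown, against 491.2 and 485.4 in controls. Per length they were rare beside their host, SNORD101 at 0.696%, SNORA33 at 0.938% and SNORD100 at 0.989% of the RPKM of RPS12, averaged over the libraries.

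SNORD14A also fell in a ribosomal protein host, RPS13. It had 29 and 36 counts after knockdown, against 53 and 61 counts in controls, with no overlap. The change was -0.96 (SE 0.25, edgeR adjusted p = 0.00265), while RPS13 rose by 0.22. SNORA72 in RPL30 had 21 and 34 counts after knockdown, against 40 and 39 counts in controls, which is -0.67 and misses the threshold (edgeR adjusted p = 0.052). SNORD4A in RPL23A had 24 and 20 counts after knockdown, against 28 and 34 counts in controls (-0.64, edgeR adjusted p = 0.0931). A gene known only by a clone name is annotated on the opposite strand at each of these 2 members, and its libraries spread widely. KB-1208A12.3, at SNORA72, had 30 and 88 counts after knockdown and 209 and 58 counts in controls, and AC010761.8, at SNORD4A, had 51 and 159 counts after knockdown and 409 and 141 counts in controls. Whether the authors' counting used strand is not given in the sources used here, so reads of such pairs cannot be told apart. The same holds for SNORA66 with FAM69A, SNORA55 with a gene known only by a clone name, SCARNA13 with GLRX5, SNORA11F with NUDT13 and SCARNA15 with FSD2. The other 4 members in ribosomal protein genes were not called, among them SNORA66 in RPL5 (-0.68), SNORD83A in RPL3 (-0.50) and SNORA3B in RPL27A (-0.29). SNORA3B overlapped between groups, with 11 and 17 counts after knockdown and 23 and 8 counts in controls, and without control library 1 it was above 0, which left 9 of 10 below.

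Because hosts moved in both directions, each member was also tested relative to its host, with the host's count in each library taking the place of the library size within the same fit of all genes. This setting was chosen after the data had been seen, and it ignores the counting error of the host. It could be fitted for 34 members in 27 hosts, of which 12 hosts were called higher, 13 lower and 2 not called. Relative to the host 9 members were lower and 2 higher at an adjusted p below 0.05. Among all 38 snoRNA rows tested this way, members or not, 31.6% were lower and 5.26% higher, but the members are most of these rows. The other 4 rows, below the sum, all lay below their host, and 3 were called lower. In all 4 both knockdown libraries were below both controls, so they passed the filter on low counts through the controls. These shares are therefore no independent background, and no other genes were tested this way. The median was -0.45, and 23 of the 34 were below their host. Of 18 box C/D members 15 lay below their host and 7 were called lower, and of 14 H/ACA members 8 lay below, with 2 called lower and 1 higher. The direction of a member matched that of its host in 17 cases and opposed it in the other 17, and in 13 of these the member was below 0 and the host above. Across the 34 members Pearson's r between the log2 fold change of member and host was 0.146. It is a description only, since the points share the same 4 libraries and the 34 members lie in 27 hosts.

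**Figure D3:**
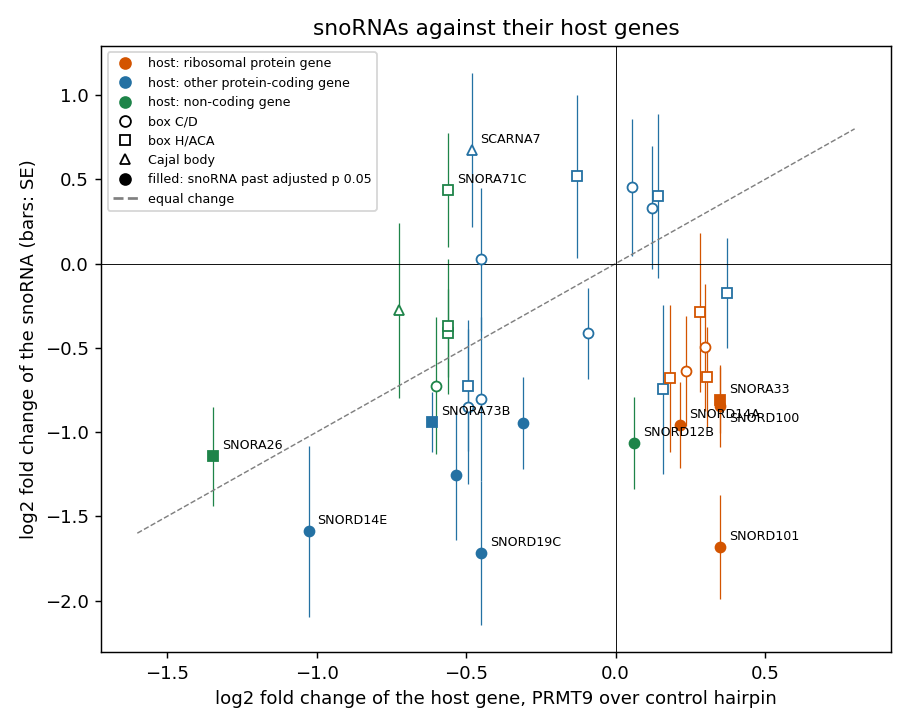
Log2 fold change of 33 of the 34 snoRNAs (vertical axis, bars are SE) against that of their host genes (horizontal axis), both PRMT9 hairpin over control hairpin. Colour gives the kind of host, shape the class, and filled points are snoRNAs past an adjusted p of 0.05. The 9 members in ribosomal protein genes that are drawn lie in the lower right, where the host rose and the snoRNA was below 0, and SNORA26 lies near the dashed line of equal change.

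Relative to the host, the members in ribosomal protein genes stood lowest. All 10 were below, with a median of -0.92, and 6 were called lower. SNORD101 stood at -2.03 (SE 0.30, edgeR adjusted p = 7.49e-06), SNORD100 at -1.19 (adjusted p = 0.000271), SNORD14A at -1.17 (adjusted p = 0.000438) and SNORA33 at -1.16 (adjusted p = 2.63e-05). SNORA72 and SNORD4A, not called by their own level, were lower than their hosts, at -0.98 (adjusted p = 0.00696) and -0.87 (adjusted p = 0.0235). The SNORA72 call was lost without PRMT9 library 1 (adjusted p = 0.0924), and the SNORD4A call without PRMT9 library 2 (0.168) or control library 2 (0.112). By their own level, however, these members had a median of -0.68, against -0.72 for those in other protein-coding genes and -0.41 in non-coding genes. The medians over the hosts were 0.29, -0.22 and -0.60 in the same order. Of 17 members in other protein-coding genes 11 were below their host, 2 called lower and 1 higher, with a median of -0.33. Of 7 in non-coding genes 2 were below and 5 above, with 1 called each way and a median of 0.18. Whether the 3 kinds of host differ was not tested.

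**Figure D4:**
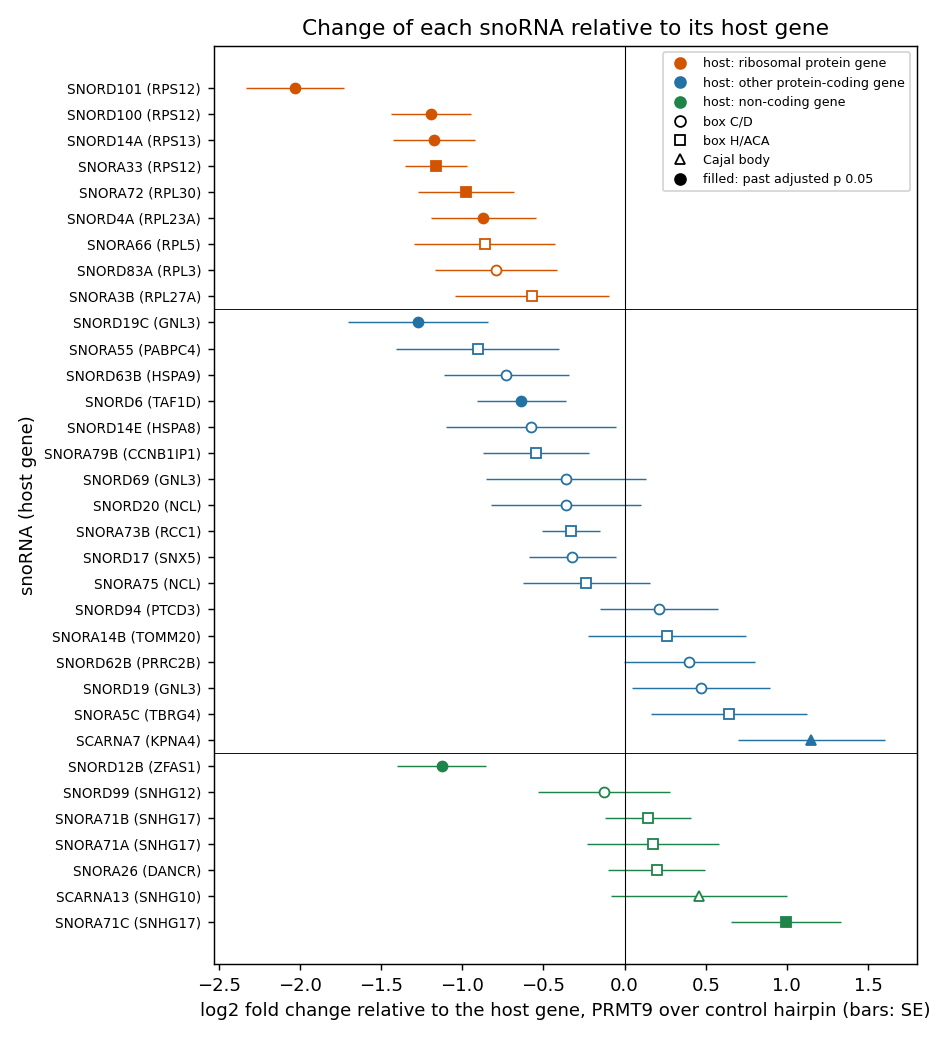
Log2 fold change of 33 of the 34 snoRNAs, each relative to its host gene, PRMT9 hairpin over control hairpin, with bars of 1 SE, grouped by the kind of host. Filled points passed an adjusted p of 0.05. The 9 drawn members in ribosomal protein genes all lie left of 0, from -2.03 to -0.57, and those in non-coding genes lie on both sides.

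Several box C/D members in other hosts fell as well, and their hosts did so to different degrees. GNL3, which encodes the nucleolar GTPase nucleostemin, holds 3 members. SNORD19C had 6 and 10 counts after knockdown, against 27 and 21 counts in controls, a change of -1.72 (SE 0.43, edgeR adjusted p = 0.00154) that was the lowest of the tested members. It reached the filter's level in both controls only, so it was tested through the group where it was higher. SNORD19, in another intron of GNL3, had 11 and 23 counts after knockdown and 14 and 16 counts in controls, and the groups overlapped (0.03). SNORD69 had 6 and 13 counts after knockdown and 12 and 18 counts in controls (-0.80, edgeR adjusted p = 0.153). GNL3 fell by 0.45 on the log2 scale, so the 3 snoRNAs of 1 host stood at -1.27, 0.47 and -0.36 relative to it in the order named, and SNORD19C was called lower (adjusted p = 0.0141). That call was lost without PRMT9 library 1 (0.121) or control library 1 (0.0621). The differences among the 3 were not tested.

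SNORD14E lies in HSPA8, which encodes a constitutive cytosolic chaperone of the HSP70 family. It had 5 and 7 counts after knockdown, against 13 and 20 counts in controls, a change of -1.59 (SE 0.51, edgeR adjusted p = 0.00999). SNORD14E reached the filter's level in both controls only. HSPA8 had 54786 and 60003 counts after knockdown, against 108383 and 102840 counts in controls, and fell by 1.03. Relative to HSPA8 the snoRNA was at -0.58 and not called (adjusted p = 0.341). With so few counts its own call was lost with DESeq2 (adjusted p = 0.097), without PRMT9 library 1 (0.0678) and without control library 2 (0.102). SNORD63B lies in HSPA9, which encodes the mitochondrial HSP70, inside an exon of an annotated transcript that retains the intron, as does SNORD63. It had 9 and 15 counts after knockdown, against 26 and 26 counts in controls, a change of -1.26 (SE 0.38, edgeR adjusted p = 0.00711). SNORD63B too reached the filter's level in both controls only. HSPA9 fell by 0.53, and relative to it SNORD63B was not called (-0.73, adjusted p = 0.104). Its own call was lost with DESeq2 (adjusted p = 0.0846) and without PRMT9 library 1 (0.0801).

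SNORD6 and SNORD12B fell in hosts that fell less or not at all. SNORD6 lies in TAF1D, a subunit of the factor that recruits RNA polymerase I, and had 29 and 26 counts after knockdown, against 50 and 46 counts in controls. The groups were apart, and the change was -0.94 (SE 0.27, edgeR adjusted p = 0.00481), lost with DESeq2 (0.0649) and without PRMT9 library 2 (0.059). TAF1D fell by 0.31, and relative to it SNORD6 was just past the threshold (-0.64, adjusted p = 0.0481) and lost that call in 6 of 11 alternatives. SNORD12B, in the non-coding gene ZFAS1, had 27 and 31 counts after knockdown, against 66 and 44 counts in controls, a change of -1.06 (SE 0.27, edgeR adjusted p = 0.0019). ZFAS1 had 1056 and 1088 counts after knockdown and 946 and 911 counts in controls and was not called (0.06, adjusted p = 0.312). SNORD12B stood at -1.13 relative to it (adjusted p = 0.00131). Among the non-coding hosts it was the sole member called lower than its host.

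Of the 3 box H/ACA members that fell, SNORA33 in RPS12 is described above, and the other 2 moved with a non-coding gene. SNORA73B, known as U17 and involved in cleavage of the ribosomal RNA precursor, was the member with the most counts, 62 and 79 after knockdown, against 115 and 129 in controls. Its change was -0.94 (SE 0.18, edgeR adjusted p = 0.000106). It lies in the non-coding gene SNHG3, itself inside the span of RCC1, which encodes the exchange factor of the GTPase Ran. SNHG3 had 1640 and 1716 counts after knockdown, against 2908 and 2567 counts in controls (-0.85), and RCC1 fell by 0.61. SNORA73B was at -0.33 relative to RCC1 (adjusted p = 0.107) and at -0.09 relative to SNHG3 (adjusted p = 0.673), and neither was called. SNORA26 had 21 and 23 counts after knockdown, against 41 and 47 counts in controls (-1.14, SE 0.29, edgeR adjusted p = 0.00201). Its host DANCR, a long non-coding RNA, had 753 and 899 counts after knockdown, against 1939 and 1851 counts in controls (-1.35). Per 100000 DANCR counts SNORA26 had 2789 and 2558 counts after knockdown, against 2115 and 2539 counts in controls. The snoRNA thus stood at 0.20 relative to DANCR (SE 0.30, adjusted p = 0.574), with the sign of its own change turned round.

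SNHG17, a non-coding host, holds 3 members of the SNORA71 family, none called by its own level. SNORA71C had 30 and 27 counts after knockdown, against 18 and 20 counts in controls, both knockdown libraries above both controls (0.44, edgeR adjusted p = 0.262). SNORA71B had 38 and 35 counts after knockdown and 47 and 41 counts in controls (-0.41), and SNORA71A had 13 and 22 counts after knockdown and 27 and 14 counts in controls, which overlap (-0.37). SNHG17 had 613 and 707 counts after knockdown, against 877 and 878 counts in controls (-0.56). Relative to it SNORA71C was higher by 1.00 (SE 0.34, adjusted p = 0.0138), a call lost without PRMT9 library 1 (0.126), while SNORA71B stood at 0.15 and SNORA71A at 0.18. NCL, which encodes nucleolin, holds SNORA75 (14 and 14 counts after knockdown, against 25 and 17 in controls) and SNORD20 (8 and 11 counts after knockdown, against 13 and 18 in controls). Both were below 0 without a call, at -0.72 and -0.85, as NCL fell by 0.49.

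The row that rose needs care, because it is not the scaRNA alone. The row named SCARNA15 had 107 and 122 counts after knockdown, against 70 and 65 counts in controls (0.61, SE 0.17, edgeR adjusted p = 0.00412), and the call was lost with DESeq2 (adjusted p = 0.0616) and in log2(RPKM + 0.1) with no filter (0.116). It spans 4325 bases of chromosome 15 and is annotated in GENCODE release 29 as a processed transcript, AC105339.2. The 127-base row of the same symbol inside it had 0 counts in all 4 libraries. SNHG21, on the same strand at chr15:82750564-82757206, covers all but the end of the 4325-base row, at chr15:82752884-82757208. By that end alone SNHG21 missed the rule for a host. It had 9 and 18 counts after knockdown and 9 and 7 counts in controls. How the authors' counting shared reads between these rows is not given in the sources used here. SCARNA7, a Cajal body RNA in an intron of KPNA4, an importin gene, had 15 and 17 counts after knockdown, against 8 and 10 counts in controls, with the groups apart (0.67, edgeR adjusted p = 0.198). KPNA4 fell by 0.48, and SCARNA7 was higher relative to it by 1.15 (SE 0.45, adjusted p = 0.0308), a call lost in 4 of 10 alternatives. SCARNA13, in SNHG10, had 5 and 17 counts after knockdown and 12 and 12 counts in controls, so the knockdown libraries lay on either side of the controls (-0.28).

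Of the 4 members whose span no host row held in full, SCARNA15 is one, and the other 3 were not called. SNORA51, a row that GENCODE release 29 names only by its RNA family, had 80 and 73 counts after knockdown, against 51 and 58 counts in controls (0.34, edgeR adjusted p = 0.173). SNORD3A, which encodes U3, had 49 and 55 counts after knockdown and 60 and 29 counts in controls, and other transcripts share 92.9% of its 50-base windows, among them its copies SNORD3B-1, SNORD3B-2, SNORD3C and SNORD3D, so its count is uncertain. SNORA11F had 26 and 23 counts after knockdown, against 32 and 29 counts in controls (-0.46), while NUDT13 on the opposite strand rose by 0.76. SNORD104 had 35 and 43 counts after knockdown and 41 and 37 counts in controls (-0.15), and its host SNHG25 had 6 to 11 counts per library and was not tested.

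The remaining members were not called. SNORD17 in SNX5 had 36 and 36 counts after knockdown, against 51 and 36 counts in controls (-0.41), SNORD99 in SNHG12 was at -0.72, SNORA55 in PABPC4 at -0.75 and SNORA79B in CCNB1IP1 at -0.17. Those above 0 were SNORD94 in PTCD3 (0.33), SNORA14B in TOMM20 (0.40), SNORD62B in PRRC2B (0.45) and SNORA5C in TBRG4 (0.52). All 50-base windows of SNORD62B also occur in SNORD62A, so its count is uncertain. At the edge of the rule, SNORD63, SNORA14B and SNORA55 were just inside the sum of 40 with 41, 42 and 43 counts, and SNORA9B, SNORD15B and SNORD12C were just outside with 38, 37 and 37 counts. SNORA9B had 7 and 5 counts after knockdown and 13 and 13 counts in controls, SNORD15B had 8 and 5, against 13 and 11, and SNORD12C had 7 and 4, against 15 and 11.

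Features that the rule did not use set the members apart from the other rows to different degrees. A host gene on the same strand holds 20 of 21 box C/D members (95.2%) and 14 of 16 H/ACA members (87.5%), against 81.1% and 49.0% of the rows of these classes below the sum. The C/D members were 68 to 699 bases long, the longest being the row SNORD3A, with a median of 77 bases. The H/ACA members were 122 to 272 bases long with a median of 134 bases. The median distance to the next exon of the host was 172 bases for C/D members, 8 of 20 lying within 100 bases, and 287 bases for H/ACA members, of which 1 lay within 100 bases. For rows below the sum the medians were 461.5 and 1055 bases. Within 100 bases lay 61 of the 283 such C/D rows with a host, and 32 of the 198 such H/ACA rows. The box C core was present in 14 of 21 C/D members (66.7%), against 63.8% of all 370 C/D rows, and the box D core in 20 (95.2%), against 86.8%. An ACA tail was found in 14 of 16 H/ACA members (87.5%), against 74.0% of all 420 H/ACA rows. These searches covered the sense strand of each row, the 2 cores do not overlap, and a missing match says only that these letters are not in the window. RPKM, unlike the features above, rests on the counts that the rule used. In the authors' RPKM, which divides by length, the median level was 7.12 for C/D, 5.13 for H/ACA and 1.21 for Cajal body members. Median widths were 77, 134 and 330 bases in the same order, so the order of these levels cannot be told apart from that of length. Across the 36 members with a host the median was 9.52% of the host's RPKM, from 0.635% for SNORA66 in RPL5 to 1960% for SNORD104 in SNHG25.

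Genes for the proteins that bind and build snoRNPs were mostly lower after PRMT9 knockdown. The background was 67.9% of all genes called, 34.5% lower and 33.4% higher, with a median of 0.00. Of the 4 box C/D core proteins, NOP56 (-0.68), NOP58 (-0.39) and SNU13 (-0.36) fell, and FBL, the methyltransferase fibrillarin, rose by 0.08 (edgeR adjusted p = 0.00355), a call lost without PRMT9 library 1 and in the RPKM fits. Of the 4 H/ACA core proteins, DKC1, the pseudouridine synthase dyskerin (-0.67), GAR1 (-0.62) and NHP2 (-0.52) fell, and NOP10 was at -0.07 (adjusted p = 0.111). Of 11 assembly factors 7 fell and 1 rose, with NUFIP1 (-0.62), the ATPase gene RUVBL1 (-0.58) and C12orf45 (-0.58) among the falls and ZNHIT3 the rise (0.29). With upper-quartile scaling these counts became 5 and 3, where 4440 of all 15193 genes were called lower and 5915 higher. Of 10 genes listed as Cajal body proteins 9 fell and none rose (median -0.41), among the falls NOLC1 (-0.61), TCOF1 (-0.75) and DDX20 (-0.69). The paralogues SMN1 and SMN2 each count among these falls, as does TCOF1, which is not itself a Cajal body protein. Of 26 genes of snoRNA trimming and RNA decay 21 fell and 3 rose (median -0.31), with the exosome subunits EXOSC8 (-0.51) and EXOSC9 (-0.69) and the poly(A)-binding protein gene PABPN1 (-0.66) among the falls and ZCCHC7, of the nuclear polyadenylation complex, higher by 0.43. AQR, an intron-binding helicase linked to snoRNP formation, fell by 0.34.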

How the data were processed

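Poly(A) RNA of 4 libraries was sequenced, 2 with an induced PRMT9 hairpin and 2 with a control hairpin. The authors deposited raw read counts per gene and RPKM values of the same genes, on GRCh38. The submitters' processing notes name STAR 2.7.2a, Trimmomatic 0.39 and SAMtools 1.10. Not given in the sources used here are the counting program, its strand setting, its treatment of multi-mapped reads and the annotation release. Per the labels' protocols, a Kapa mRNA HyperPrep kit was used on Trizol-extracted RNA.

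Genes were filtered with filterByExpr of edgeR 4.0.16 (minimum count 10) in R 4.3.3, which kept 15193 genes with 99.9% of the counts, scaled by TMM and tested with the quasi-likelihood test (robust, group term, Benjamini-Hochberg adjustment over all genes, threshold 0.05), which was also tested on simulated data. SE is the log2 fold change divided by the square root of F. CPM values are TMM-scaled. The host of a snoRNA is the same-strand row whose span holds it, small RNAs aside, and with the most counts where there were several. All 40 members have the same coordinates in GENCODE release 29. Symbols shared by several rows are given as current names: SNORD19C and SNORD63B are rows named SNORD19 and SNORD63, and SNORA11F and SNORA79B are rows named SNORA11 and SNORA79.

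Named are PRMT9, the called members (10 largest changes each way), the 10 members with most counts, all SCARNA rows, members at the edge of the sum, the 5 largest and 5 smallest differences from the host, members of shared hosts, the core proteins and up to 3 genes of each other list. SNORA72, SNORD4A and further members were named after their values were seen. The single values of 1 member, which enters all counts and sums, are not reported here. The members and lists were chosen with earlier results of these data known. The 2 libraries of a group differed by more than counting noise (chi-square per degree of freedom 1.60 for the PRMT9 hairpin and 2.91 for the control hairpin). Alternatives were other scalings, filters, DESeq2 1.42.0, limma-voom and limma 3.58.1 on log2 RPKM, a replicate block, each library left out, other sums in the rule, and the host as offset.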

Additional observations from a re-analysis of the deposited data

How the results depend on the processing

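Over the named genes, 418 alternative values kept direction and call, 15 gained a call, 14 lost one and 15, of which 1 belongs to a called member, changed sign. Outside the host offset SNORD101, SNORD19C, SNORD12B, SNORD14A, SNORA26, SNORA73B and SNORA33 passed the threshold under each alternative that tested them. DESeq2 called 7 members lower and 0 higher (4 box C/D lower, 0 Cajal body higher) and lost SNORD14E, SNORD63B, SNORD6, SNORD100 and SCARNA15, and the cause was not tested. limma on log2(RPKM + 1) called 19 lower and 4 higher (H/ACA 8 lower and 2 higher, Cajal body 2 higher), with medians of -0.44 for all members, -0.66 for C/D and 0.24 for Cajal body. On log2(RPKM + 0.1) it called 21 lower and 4 higher (13 C/D lower, H/ACA 8 lower and 2 higher, Cajal body 2 higher, median 0.53), and with no filter 0 were higher (Cajal body 0 higher, median 0.53, C/D median -0.69). Of all 15193 genes DESeq2 called 4360 lower and 3990 higher, and limma on log2(RPKM + 1) called 4902 lower and 4639 higher. On log2(RPKM + 0.1) these counts were 4911 and 4678, and with no filter 4228 and 3726 of 30023 genes. Upper-quartile scaling moved the median of all genes to 0.09 and gave medians of -0.41 for all members, -0.68 for C/D and 0.70 for Cajal body. With no filter the median of all members was -0.56. The filter at 1 CPM kept 16 members, with 5 C/D lower and medians of -0.71 for all members, -0.86 for C/D and -0.64 for H/ACA. With a sum of 20 or more the medians were -0.67 for all members and -0.82 for C/D, with 5 H/ACA lower. With a sum of 100 or more they were -0.67 for all members, -0.84 for C/D and -0.67 for H/ACA, with 5 C/D lower. The 27 members whose symbol stands in 1 row gave 7 lower and 0 higher (1 H/ACA lower, 0 Cajal body higher, Cajal body median 0.20).

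With the host as offset, chosen after seeing the data, the tested members without a tested host kept the library size and were counted too. On that footing 3 were higher, 1 of them H/ACA and 2 Cajal body, among them SCARNA15, which was given no host. Medians over the same members, which mix both kinds of offset, were -0.36 for all members, -0.61 for C/D and -0.28 for H/ACA. SNORA26, a called member, was then at 0.20, SNORA71B at 0.15, SCARNA13 at 0.46 and SNORA71A at 0.18, all 4 below 0 with the library size. SNORD19, at 0.026, was at -0.038 with limma-voom, -0.047 on log2(RPKM + 1), -0.059 on log2(RPKM + 0.1) with and without the filter and -0.012 with the replicate block. The count higher than the host was 1 with no filter and 0 with the filter at 1 CPM, at an adjusted p below 0.01 or with a sum of 100 or more. DESeq2, voom and RPKM were not run for that test.

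Leaving out 1 library gave 8 to 11 members lower, medians of all members from -0.56 to -0.47, 5 to 8 C/D lower, C/D medians from -0.79 to -0.56, Cajal body medians from 0.48 to 0.64, H/ACA medians from -0.58 to -0.40, and 0 to 3 higher than the host. Among the uncalled members whose sign turned with 1 library left out were SNORA5C (-0.0016 to 1.31), SNORD19 (-0.52 to 0.40), SNORA71A (-0.72 to 0.13), SNORD3A (-0.29 to 0.65) and SCARNA13 (-1.32 to 0.29). SNORA3B, described above, also turned, without control library 1. SNORD14E, SNORD63B, SNORD100 and SNORD6 were the calls lost. The labels do not state whether the numbers pair the libraries. The correlation of same-numbered deviations was -0.0307, which cannot settle it with 2 libraries per group. The fit with the replicate block, 11 lower and 1 higher, changed no named call, although SNORD6 relative to its host was lost (edgeR adjusted p = 0.0665). Depth is a limit: 23 members had under 100 counts in all, so small changes may not be detectable.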
